A study of Mus musculus with 4 samples.

Results

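The genes described here encode the proteins of the cytosolic ribosome. They were chosen by gene symbol alone: a probe set belongs when the platform annotation gives it a single symbol that is Rpl or Rps followed by a number, with an optional letter or l suffix, or that is Rpsa or Rplp0 to Rplp2. This rule took 104 probe sets of 48 genes, out of 18193 genes with a probe set of their own, and 26 of the genes belong to the large subunit and 22 to the small subunit. Kinases named Rps6k and Rps19bp1 were left out, as was a pseudogene symbol. Probe sets that list a ribosomal protein gene together with other symbols, 110 in all, are not members, so many ribosomal proteins are outside the list. Each gene is represented by its brightest probe set, the one with the highest mean log2 signal over the arrays.

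Signals came from 4 one-colour Affymetrix arrays, 2 of BMP-2 treated and 2 of untreated cells. All 4 samples are E14Tg2A.4 cells, a subline of the mouse embryonic stem cell line E14Tg2a, which carries a deletion in Hprt that treated and control cells share. Treated cells were exposed for 1 h to 25 ng/ml of BMP-2, a growth factor of the bone morphogenetic protein family whose receptors phosphorylate SMAD1 and SMAD5. Control cells are titled untreated without a time, and the labels give a single cell line and no medium. The deposited values are MAS5 signals on a linear scale, in which each probe set is summarised from its perfect-match and mismatch probes. The labels do not say whether replicates were grown separately, so a p-value speaks only of the spread between these 4 arrays, part of which may be technical. With so few arrays the precision is limited throughout.

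A ribosome consists of a small subunit, which reads the messenger RNA, and a large subunit, which joins amino acids. Each subunit holds ribosomal RNA and a fixed set of proteins, mostly in single copies. Messenger RNAs of these proteins are long-lived and abundant in dividing cells, and their translation is controlled through a pyrimidine-rich stretch at the 5' end (the TOP motif) that responds to mTOR signalling. Arrays measure the messenger RNA level and not its translation.

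Treatment was visible in known early BMP targets. Id1, Id2 and Id3, which encode inhibitors of basic helix-loop-helix factors, rose by 1.65, 1.76 and 1.73 log2 (limma adjusted p = 2.0e-05, 3.6e-05 and 3.6e-05), and none of them passed in a fit without the intensity trend (highest adjusted p = 0.859). Over all 27022 probe sets bright enough to be tested, 5 passed an adjusted p of 0.05, all 5 higher with BMP-2. Centring each array on its median gave 72 higher and 44 lower. All 10 embryonic stem cell markers on a fixed list were measured, with Pou5f1 at 10293 to 11210 and Sox2 at 14383 to 15126. Of 9 fibroblast markers 4 were above the lower signal limit of 53.0. Over all 9, the summed signals were 1797 and 2094 on treated and 1948 and 1848 on untreated arrays. Col1a1, Col3a1, Dcn, Lum and Postn were below the limit. Summed over all 7 endoderm markers, the signals were 729 and 903 against 614 and 721, and 6 of the markers were above the limit. All 6 had a difference above 0, with a median of 0.19 log2, and Sox7 read 111 and 135 against 63.5 and 50.9, a difference of 1.11 ± 0.31 log2 without overlap (unadjusted p = 0.0052, limma adjusted p = 1). Whether cells of that kind had a part in the ribosomal protein signals was not tested. Control probe sets for 18S ribosomal RNA read 3.94 to 6.11 times the highest other array on untreated replicate 2. Whether the RNA content behind that reading touched the ribosomal protein signals was not tested, and values without that array are given below where they bear on a result.

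Some of these genes carry a pyrimidine run at or near their annotated start. The count below includes runs that lie wholly before the start. RefSeq promoter windows of 300 bases (250 before the annotated start and 50 after it, build GRCm38.p6) were found by Entrez identifier for 42 of the 48 genes, which lie on 15 chromosomes and have 50 windows. A run of at least 6 pyrimidines (C or T) touching the 5 bases on either side of the annotated start was present in 23 of the 50 windows (46.0%), against 21.0% of all 32851 windows. The following stretches of 30 bases, 20 before the start and 10 from it onward, are shown 5' to 3' on the gene's own strand because they let this feature be seen in members of both subunits, with the pyrimidine run in capitals.
Rpl7a, chr2:26910787-26910816 (+): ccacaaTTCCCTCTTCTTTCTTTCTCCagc
Rpl35, chr2:39005122-39005151 (-): gaagtcggccccgCCCTTTCCTCTTTCTCT
Rpl27a, chr7:109519175-109519204 (+): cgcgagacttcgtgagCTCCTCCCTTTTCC
Rplp2, chr7:141447631-141447660 (+): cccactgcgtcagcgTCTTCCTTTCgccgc
Rps10, chr17:27635235-27635264 (-): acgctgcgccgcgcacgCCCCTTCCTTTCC
Rps18, chr17:33955656-33955685 (-): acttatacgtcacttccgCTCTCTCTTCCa
Rps6, chr4:86857358-86857387 (-): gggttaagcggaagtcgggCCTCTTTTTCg
The whole run was 21 bases long in Rpl7a, 20 in Rpl27a and 18 in Rpl35, and in the last pair it goes on past the stretch shown. In Rps6, whose protein is the classic substrate of S6 kinase, it was 10 bases long and began 1 base before the annotated start. Annotated starts can lie some bases from the true one, so a window without such a run says only that these letters are not there.

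Other motifs were searched on both strands of the 300 bases, each counted on its own even where it overlaps another. The ETS family core CCGGAAG was in 20 of the 50 windows (against 8.86% of all windows). The GC box GGGCGG was in 26 (against 35.7%), the YY1-type AAGATGGC in 4 (against 2.75%), and TATAAA in 6 (against 13.6%). A match is a description of the letters, not a shown binding site.

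The pairs of paralogues below are shown because such a run was found in both genes of one pair and in a single gene of the other. Rps27 and its paralogue Rps27l, which is known as a p53 target, both have a run of 9 pyrimidines near a start. In Rps27 the run spans the annotated start, and in Rps27l it lies wholly before it. Rpl39l has a run of 7, also wholly before the annotated start, and Rpl39 has none. Rpl22l1, not printed, has a run of 10, and its partner Rpl22 has none at either of its annotated starts.
Rps27, chr3:90213639-90213668 (-): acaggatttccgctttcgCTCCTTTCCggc
Rps27l, chr9:66946066-66946095 (+): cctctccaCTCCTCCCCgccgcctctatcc
Rpl39, chrX:37085213-37085242 (-): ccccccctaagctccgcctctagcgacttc
Rpl39l, chr16:10170208-10170237 (+): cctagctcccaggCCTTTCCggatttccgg
Rps27l has a second annotated start, and its window there has no such run.

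Ribosomal protein genes were among the brightest on these arrays. Of the 48 genes, 37 had a mean signal above 10000 on their brightest probe set and 21 above 20000. The median over the 48 was 19356, with the middle of the list between 11653 and 21127. Member probe sets were 0.231% of all probe sets other than controls, and they made up 14 of the 50 brightest, 34 of the 100 brightest and 51 of the 200 brightest. The brightest probe set on every array was that of Rps18, a protein of the head of the small subunit, at 27981 and 27655 with BMP-2 and 27683 and 28988 without. The brightest large subunit gene was Rpl13a at 24581 and 23679 against 23294 and 24348, followed by Rpl27 and Rpl38. Rps7, which is mutated in some cases of Diamond-Blackfan anaemia, and Rps29 followed Rps18 in the small subunit. Treated and untreated signals overlapped for each of these 6 genes. A signal depends on the probes as well as on the transcript, so the order of probe sets is an order of brightness and not of transcript level.

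**Figure D1:**
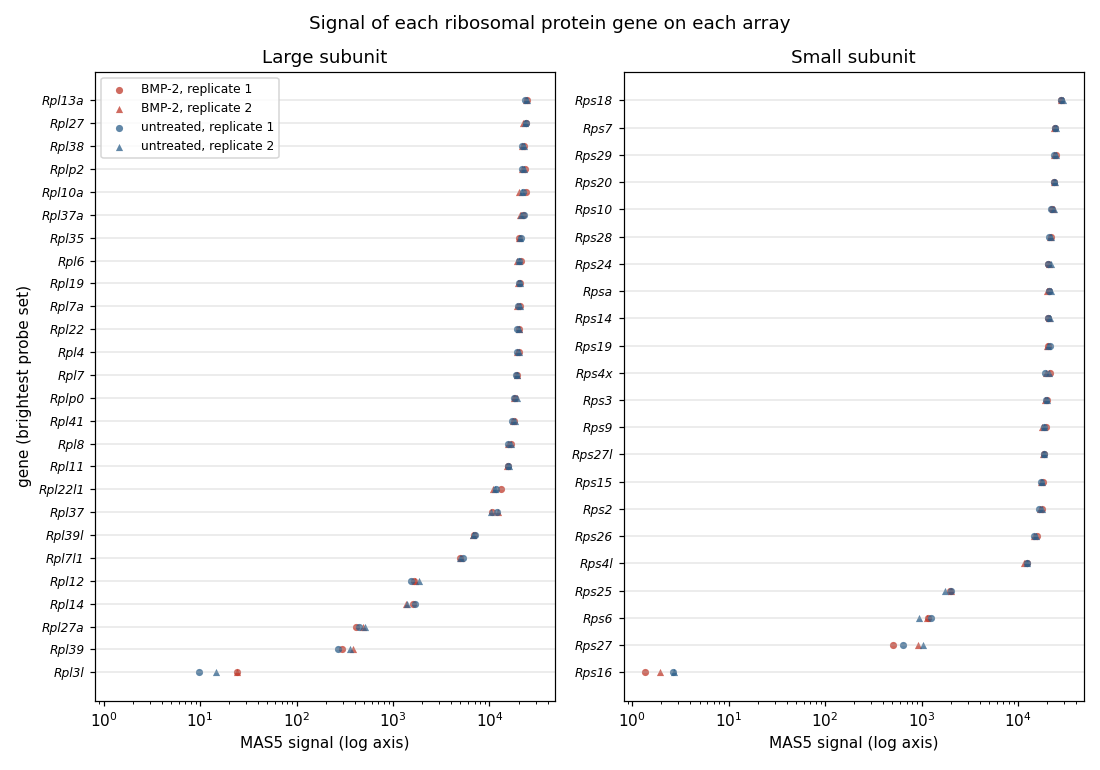
MAS5 signal (log axis) of each of the 48 genes on its brightest probe set, in the large subunit (left) and small subunit (right), with one point per array; red is BMP-2, blue untreated, circles replicate 1 and triangles replicate 2. For the 37 genes above 10000 the 4 points nearly coincide, while Rps27 and the unkept Rpl3l and Rps16 show a visible spread.

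The 37 bright genes spanned a range of only 2.51-fold, from Rpl37 at 11204 to Rps18 at 28072. Over the whole array, 83 probe sets had a mean above 20000, of which 26 are members, and 4 had one above 25000. The deposited table gives no saturation flag, so whether these probes had reached the limit of the scanner was not tested. The spread of the differences between treated and untreated cells narrowed with signal, both in members and in other probe sets. Its SD over member probe sets was 0.20 log2 below a signal of 1000, 0.10 between 1000 and 10000, and 0.033 above 10000. For other probe sets it was 0.28, 0.11 and 0.048. Of the 543 other probe sets above 10000, 79 list a ribosomal protein gene with other symbols. No difference among the 543 was larger than 0.17 log2. A change in a bright gene would thus be read against a narrow background, and signals that no longer rise with transcript level cannot be told apart here from transcripts that did not change.

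Few members were dim on the probe sets that the symbol rule takes. The 9 genes tested with a mean at or below 10000 were Rpl39l, Rpl7l1, Rps25, Rpl12, Rpl14, Rps6, Rps27, Rpl27a and Rpl39, from 6874 for Rpl39l to 323 for Rpl39. For Rpl12, Rpl14, Rpl27a, Rpl39, Rps6, Rps25 and Rps27 a probe set that lists the gene with other symbols, and is therefore no member, was much brighter, with means from 15985 for Rps25 to 25125 for Rpl12. For these genes the low signal is that of the member probe set and not of every probe set of the gene. Rps16 and Rpl3l were below the signal limit and were not tested. The single Rps16 probe set read 1.35 and 1.94 with BMP-2 and 2.66 and 2.73 without, and these signals of the probe set carry no level of the gene, whose brightest probe set listed with other symbols had a mean of 23443. Rpl3l, which encodes a form of Rpl3 known from heart and skeletal muscle, read 24.3 and 24.1 against 9.69 and 14.5, also under the limit.

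Different probe sets of the same gene gave very different signals. Of the genes, 24 had 1 probe set and 24 had several, up to 6. The signals of tested probe sets differed by 426-fold within Rps18, 164-fold within Rpl35, 112-fold within Rps24 and 97.5-fold within Rps10, but by only 1.07-fold within Rpl7. By name, 40 of the 104 member probe sets carry the suffix _x_at, which marks probes that may hybridise to other sequences, and 3 carry _s_at, which marks probes shared by several transcripts. Ribosomal protein genes have many processed pseudogenes and close copies, so values from these probe sets may include other transcripts. Of the 48 representatives, 15 have _x_at and 2 have _s_at.

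Ribosomal protein transcripts were not detectably different after 1 h of BMP-2. The comparison asked which transcripts differ between treated and untreated cells, and 0 of the 46 tested members passed an adjusted p of 0.05 in limma, where 0.0185% of all tested probe sets did. At an unadjusted p under 0.05 there were likewise 0 of 46, against 3.07% of all tested probe sets and 1 of the 543 others above 10000. The median log2 difference over the 46 was -0.011 (0.0037 after quantile normalization and -0.0081 after centring each array on its median), where the median over all tested probe sets was 0.0076. Of the members 20 lay above 0 and 26 below it (47.8% of all tested probe sets and 64.8% of those with a signal above 10000 lay below). The number below 0 was 22 after quantile normalization, 37 without treated replicate 1 or untreated replicate 1, 18 without treated replicate 2 and 19 without untreated replicate 2, so that 1 array sets which sign is the more frequent. The difference was smaller than 0.1 log2 in either direction for 44 of the 46, and the exceptions were Rpl39 at 0.13 and Rps27 at -0.25. For 36 genes the whole 95% interval lay within 0.2 log2 of 0, that is between 0.871-fold and 1.15-fold. For the bright genes the intervals together reached from 0.869-fold to 1.20-fold.

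Treated signals lay above both untreated signals in 0 of the 46 genes (15.9% of all tested probe sets, 5.22% of those above 10000). They lay below both in 3, which are Rpl11, Rpl35 and Rpsa (6.52% of the genes, against 12.5% of all and 16.3% of those above 10000). After the arrays had been centred on their medians, 1 gene was left with treated signals below both untreated ones, with the mean of all probe sets of a gene there were 5, and with the dimmest tested probe set 6. Counted over all 97 tested member probe sets in place of 1 per gene, 17 lay below without overlap and 5 above. Of the 70 member probe sets above 10000, 15 lay below without overlap and 0 above, where 85 and 32 of the 543 other probe sets of that brightness did. Where the members stand against the other probe sets in this count thus depends on whether genes or probe sets are counted.

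**Figure D2:**
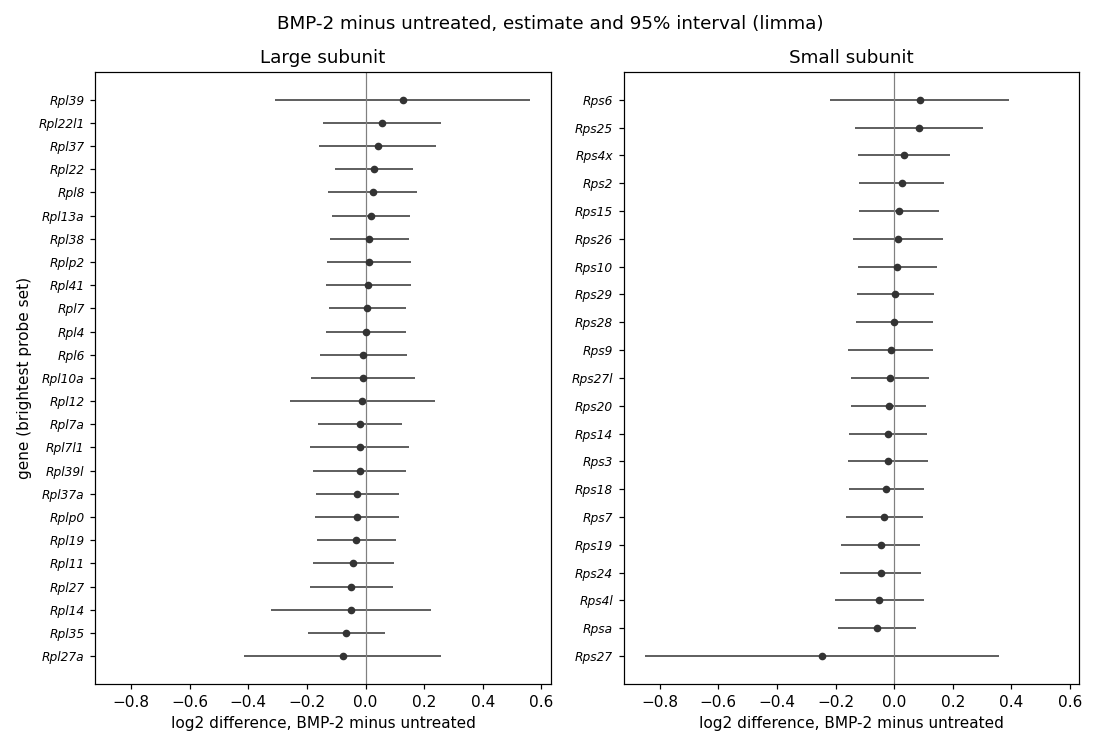
Log2 difference of BMP-2 treated minus untreated cells for the 46 tested genes, each with its 95% interval from limma, large subunit on the left and small subunit on the right. All intervals include 0, and the widest belongs to Rps27.

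The large subunit had a median difference of -0.0095 log2 (0.0026 after quantile normalization) over 25 tested genes, 11 of them above 0 and 14 below, with a range of -0.08 to 0.13. The smallest p-values in it were those of Rpl35, Rpl27, Rpl11, Rpl39 and Rpl22l1. Rpl35, a protein beside the exit tunnel, read 20365 and 20044 with BMP-2 and 21325 and 20958 without. Both treated signals were below both untreated ones, by -0.07 ± 0.06 log2 (SE, limma adjusted p = 1), and the interval of -0.20 to 0.06 includes 0. Rpl11, which binds MDM2 when ribosome assembly is disturbed, read 15379 and 15229 against 15429 and 16102. Its groups did not overlap either, but treated replicate 1 was only just below untreated replicate 1, and the difference was -0.04 ± 0.06 log2. Rpl27 read 23698 and 22009 against 24119 and 23128, with overlap.

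Proteins of the stalk, which recruits the GTPases of elongation, were represented by Rplp0 and Rplp2. Rplp0 read 18458 and 18140 against 17994 and 19373, and both treated values lay between the untreated ones. The stalk dimer protein Rplp2 read 23261 and 21505 against 21663 and 22718, where the treated arrays held both the highest and the lowest value. Their differences were -0.03 ± 0.06 and 0.01 ± 0.06 log2. Rplp1 has no member probe set here.

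The small subunit had a median difference of -0.015 log2 (0.0048 after quantile normalization) over 21 tested genes, with 9 above 0 and 12 below. Its range was -0.25 to 0.09. The smallest p-values were those of Rpsa, Rps27, Rps25, Rps19 and Rps24. Rpsa, also known as the laminin receptor, read 20933 and 20164 with BMP-2 and 21012 and 21759 without. The groups did not overlap, and the difference was -0.06 ± 0.06 log2 with an interval of -0.19 to 0.08. Rps25, known for its part in initiation at viral internal entry sites, read 1990 and 2004 against 2009 and 1764, so that untreated replicate 2 alone was low. Rps19, the gene most often mutated in Diamond-Blackfan anaemia, read 20605 and 20093 against 21545 and 20476, with overlap. Both subunit medians differed from 0 by less than the SD of 0.034 and 0.033 log2 that the same medians showed between replicate arrays.

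Rps27 had the largest difference and the largest spread, on a dim member probe set. It read 508 and 928 with BMP-2 and 646 and 1029 without, so that both replicates numbered 2 were high and both numbered 1 low. The difference was -0.25 ± 0.27 log2 (limma adjusted p = 1). It ran from -0.68 without treated replicate 2 (adjusted p = 0.0639) to 0.19 without treated replicate 1, over fits that leave out 1 array. A bright probe set annotated to Rps27 and Rps27rt together, which is no member, read 18064 and 15793 against 18267 and 17406, a difference of -0.08 ± 0.08 log2 with overlap. A second small subunit probe set, a dim one of Rps9, had the same order of arrays, with 1130 and 1584 against 1229 and 2074, while the brightest one of Rps9 read 19307 and 17759 against 18543 and 18788.

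Of the paralogues whose symbols end in l or l1, none passed. The 5 tested genes had a median difference of -0.020 log2, 1 above 0 and 4 below. Rpl39l, a copy of Rpl39 known for high expression in testis, read 6903 and 6747 against 7102 and 6749, a difference of -0.02 ± 0.07 log2. Its partner Rpl39, a protein that lines the exit tunnel, read 296 and 383 against 269 and 355, with 0.13 ± 0.20 log2. For Rpl39 the treated array was the higher one within each replicate number, yet the groups overlapped, and for Rpl39l it was the lower one. Rps27l read 18614 and 18027 against 18587 and 18442, with -0.02 ± 0.06 log2.

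Rpl22l1, a paralogue of the RNA-binding protein Rpl22, read 13313 and 10892 with BMP-2 and 11638 and 11517 without. Treated replicate 1 was the high array and treated replicate 2 the low one, and the difference of 0.06 ± 0.09 log2 ran from -0.09 without treated replicate 1 to 0.20 without treated replicate 2. Rpl22 itself read 20245 and 20039 against 19404 and 20115. Rps4l read 12470 and 11502 against 12354 and 12445, and its X-linked partner Rps4x 21500 and 19658 against 19223 and 20953. Both pairs overlapped between the groups. Close copies share sequence, so signals of a pair may not be separate.

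Rpl7l1 has 3 probe sets, and they did not move alike. The brightest read 4985 and 5119 with BMP-2 and 5284 and 4969 without, a difference of -0.02 ± 0.08 log2, and Rpl7 itself differed by 0.0065 log2. The dimmest read 1105 and 1048 against 831 and 786, with both treated arrays above both untreated ones, by 0.41 ± 0.11 log2 (unadjusted p = 0.0038, limma adjusted p = 1). That probe set did not pass, and the middle one differed by 0.10 log2 with overlap.

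A comparison of bright and dim probe sets within a gene was possible for 9 genes that have one above 10000 and at least one below 3000. The brightest differed by -0.07 to 0.03 log2, and the 15 dim ones by -0.25 to 0.46, with 7 above 0 and 8 below. Rps24 gave -0.05 log2 on its brightest probe set, with 20355 and 20901 against 20600 and 22026. Its dimmest read 228 and 210 against 154 and 165, which is 0.46 ± 0.20 log2 (unadjusted p = 0.0412, limma adjusted p = 1). In Rps20 the dim pair gave 0.16 and 0.26 log2 and the brightest -0.02, and in Rps18 the dim ones ran from -0.05 to 0.27. Rps10 went the other way, with -0.17 log2 on the dim probe set. Over all 20 genes with several tested probe sets, 15 had differences of both signs. Of the 97 tested member probe sets, 2 had an unadjusted p under 0.05 (those of Rpl7l1 and Rps24 just given) and 0 passed by limma, against 3.07% and 0.0185% of all.

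**Figure D3:**
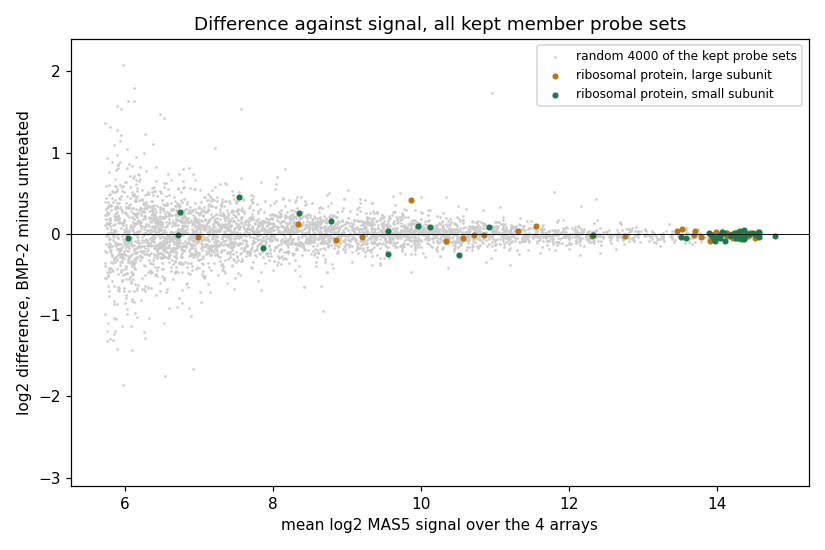
Log2 difference of BMP-2 minus untreated cells (vertical axis) against the mean log2 signal (horizontal axis) for the 97 tested member probe sets, with a random 4000 of the tested probe sets in grey. Members crowd at the right end, where differences of all probe sets are small, and the few with larger differences are dim.

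The members differed together between arrays, and the high and the low arrays were not those of one treatment. Relative to each gene's own mean over the 4 arrays, the median deviation was 0.023 log2 on treated replicate 1, -0.028 on treated replicate 2, -0.020 on untreated replicate 1 and 0.028 on untreated replicate 2. Treated replicate 1 and untreated replicate 2 were thus the high arrays, one from each group. Large and small subunit genes had the same sign on every array, with large subunit medians of 0.026, -0.031, -0.019 and 0.020 and small subunit medians of 0.015, -0.023, -0.020 and 0.033 in that order of arrays.

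Between the arrays numbered 1, 31 of the 46 genes were higher with BMP-2, by a median of 0.032 log2. Between those numbered 2, 41 of 46 were lower, by a median of -0.062 log2. Among the 543 other probe sets above 10000, 273 were higher with BMP-2 between the arrays numbered 1 and 171 between those numbered 2, so most of these bright probe sets were lower in the latter too. Over all tested probe sets 53.6% and 50.6% were higher. Within the groups, 36 of 46 were higher on treated replicate 1 than on treated replicate 2, and 33 of 46 were lower on untreated replicate 1 than on untreated replicate 2. The members' median step between arrays of like treatment, 0.045 and -0.050 log2, stood beside 0.032 and -0.062 between arrays of different treatment. Over all tested probe sets 44.3% were higher on treated replicate 1 than 2, with a median step of -0.033 log2, opposite in sign to the members. On untreated replicate 1, 40.6% were higher than on untreated replicate 2, with a median step of -0.062 log2. The untreated step was thus not particular to the members. The other 543 probe sets above 10000, of which 79 list a ribosomal protein gene with other symbols, shared part of this order. Of the 543, 416 were higher on treated replicate 1 than 2, but 295 were higher on untreated replicate 1 than 2. Untreated replicate 2 is also the array with the high 18S readings. Without it the median difference of the members was 0.0083 log2, and with all 4 arrays it was -0.011. Over all tested probe sets the same medians were 0.033 and 0.0076 log2, so both rose when that array was left out.

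**Figure D4:**
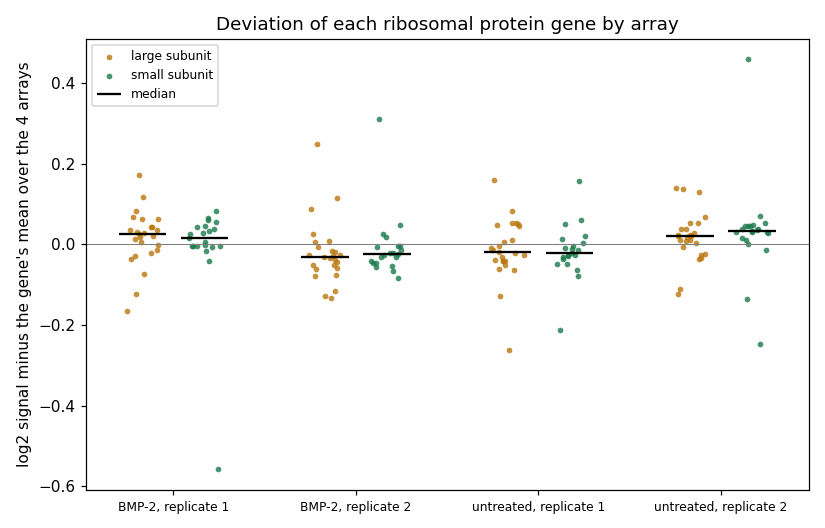
Deviation of each of the 46 tested genes from its own mean log2 signal over the 4 arrays, by array, with large subunit genes in orange and small subunit genes in green and the median as a black bar. Medians lie above 0 on treated replicate 1 and untreated replicate 2 and below 0 on the other pair. In the small subunit Rps27 is the lowest point on both arrays numbered 1 and the highest on both numbered 2. The lowest small subunit point on untreated replicate 2 is Rps6.

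Other genes of ribosome production and translation, taken from fixed lists, gave 0 genes past an adjusted p of 0.05 in limma. Of all tested probe sets 47.8% lay below 0, and of those with a signal above 10000 64.8% did. Of 25 measured initiation factors 7 were above 0 and 18 below, with a median of -0.015 log2. Eif3b, a scaffold of the initiation factor that binds the small subunit, read 7910 and 7291 against 8422 and 7988, and Eif6, which keeps the large subunit from joining too early, read 8224 and 7690 against 8693 and 8401. Both were lower on both treated arrays, by -0.11 and -0.10 log2 (limma adjusted p = 1 for each). In all, 1 of the 25 lay above and 5 below without overlap, where 15.9% and 12.5% of all tested probe sets did. Eif2s3x, a subunit of the factor that carries the initiator transfer RNA, differed by 0.12 log2. Of 7 genes on the list of elongation factors, which also takes in Tpt1 and Eef1e1, 1 was above 0 and 6 below. Their median was -0.030 log2, and Eef1d, a subunit of the exchange factor of elongation, differed by -0.09 log2.

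Of 34 ribosome biogenesis factors 16 were above 0 and 18 below, with a median of -0.0038 log2. Fbl, the methyltransferase fibrillarin, read 10060 and 10505 with BMP-2 and 10898 and 11389 without. Pes1 read 4353 and 4638 against 5024 and 4838, and its partner Bop1 in large subunit assembly 4232 and 4090 against 4394 and 4649. In these 3 genes the groups did not overlap and the differences were -0.12, -0.13 and -0.12 log2, all with limma adjusted p = 1. In all, 2 of the 34 lay above and 4 below without overlap, where 15.9% and 12.5% of all tested probe sets did.

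The 16 regulators of ribosome production were Mdm2 and genes of the MYC and mTOR pathways. Of the 16, 5 were above 0 and 11 below (47.8% of all tested probe sets lay below), with a median of -0.020. Max, the dimerisation partner of MYC, read 757 and 786 against 628 and 518, a difference of 0.44 ± 0.13 log2 with no overlap (unadjusted p = 0.009, limma adjusted p = 1). Rictor, of the second mTOR complex, differed by 0.20 log2, and Tsc1, an inhibitor upstream of mTOR, by -0.29. Fau, a small subunit protein made as a ubiquitin-like fusion and so outside the symbol rule, differed by -0.0049 log2 (0.014 after quantile normalization). Without treated replicate 2, the medians of the 4 lists before Fau turned above 0, the highest being 0.0095 for the initiation factors, and that of the regulators was also above 0 without untreated replicate 2 (0.0037).

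**Figure D5:**
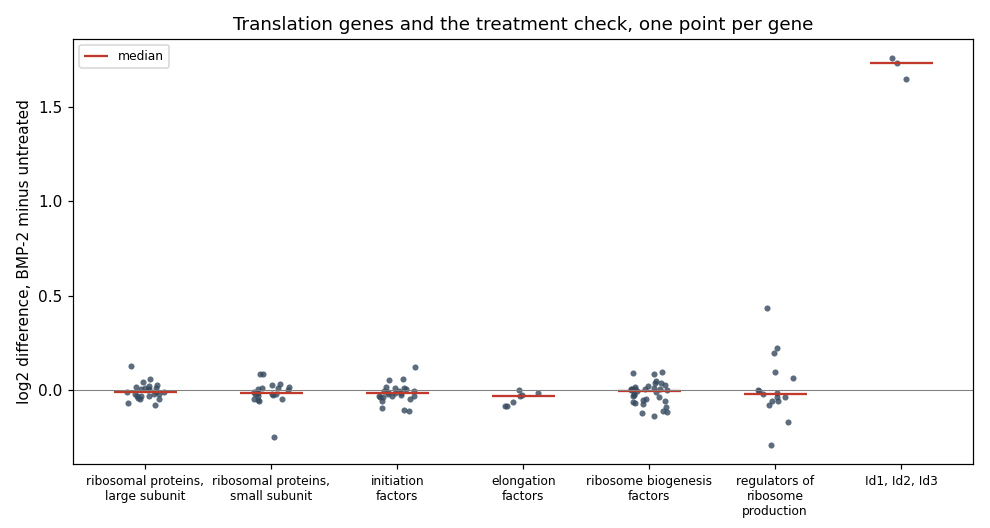
Log2 difference of BMP-2 minus untreated cells for each gene (points) with the list median (red bar), for ribosomal proteins of either subunit, 4 lists of translation and ribosome production genes, and Id1, Id2 and Id3. The list medians other than that of the Id genes lie between -0.030 and -0.0038 log2, and the Id genes between 1.65 and 1.76.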

How the data were processed

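The authors deposited MAS5 signals, which are linear intensity values per probe set, per the submitters' processing notes, which name no version. Biotinylated cRNA from total RNA was hybridised to Affymetrix arrays, per the labels. The 2%-trimmed mean was 500.003 on each array, so the arrays were scaled to each other. Array medians lay within 0.21 log2, under the limit of 0.3, and no further normalization was applied. The median signal was 81.8 on treated and 82.5 on untreated replicate 1, and 94.9 and 94.6 on those numbered 2. The gap thus lay between the replicate numbers. Log2 signals without pseudocount were used. Leaving out 64 control probe sets, those with a mean above the 40th percentile (5.73 log2, a signal of 53.0) were kept. Detection calls were not used here. The comparison of the groups used limma 3.58.1 under R 4.3.3, by lmFit and by eBayes with an intensity trend and without a replicate block, two-sided, with Benjamini-Hochberg adjustment over 27022 probe sets. Residual degrees of freedom were 2 and prior ones 7.98. A permutation of 2 against 2 arrays cannot pass 0.05, so none was run. The code was tested on simulated data.

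Gene symbols came from the platform annotation. The members and lists were chosen with earlier results of these data known. Named genes are, for each subunit, the 5 smallest p-values and the 3 brightest, all paralogues and partners, the stalk proteins and Rpsa, the 3 smallest p-values of each fixed list, and Id1 to Id3; this gave 50 genes, of which 25 are members. Other members and single probe sets were named after their values were seen. Alternatives were quantile normalization, centring on array medians, a pseudocount of 25.4, other filters, no trend, the replicate block, leaving out each array in turn, and other choices of probe set.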

Additional observations from a re-analysis of the deposited data

How the results depend on the processing

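With 2 arrays per group, the number of arrays limits the precision, and the spread was widest at low signal. In each alternative run, 0 members passed an adjusted p of 0.05, and the smallest adjusted p was that of Rps27 without treated replicate 2 (0.0639). At an adjusted p under 0.1 no member passed with all 4 arrays. The median difference of the members ran from -0.032 to 0.011 log2 when an array was left out, that of the large subunit from -0.037 to 0.017 and that of the small subunit from -0.031 to 0.0078. Leaving out an array changed the sign of 13 to 19 of the 46 members, quantile normalization that of 4 and median centring that of 0. The dimmest tested probe set of each member, a choice made after seeing the data, gave 11 sign changes, and the mean of all probe sets gave 10.

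The count of all probe sets that passed was 5, and 116 after median centring, 8 with the filter at the 60th percentile, 0 without the intensity trend (limma; 1023 at an unadjusted p under 0.05), 11 with the replicate block, 11 at an adjusted p under 0.1, and 16 to 141 when an array was left out, where the lone array of a group is assumed to vary like the others. Members whose treated signals lay below both untreated ones numbered 3, and 1 after median centring, 5 with the mean of all probe sets and 6 with the dimmest probe set. The replicate number as a block changed no call among the members. Over all tested probe sets it raised the number with an unadjusted p under 0.05 (limma) from 829 to 1452. The deviations of equally numbered arrays correlated at 0.152 over tested probe sets and at 0.643 over the 46 members. Rps27, with the widest step in both groups, weighs heavily in the second value. It deviated by -0.56 and 0.31 log2 on treated and by -0.21 and 0.46 on untreated replicates 1 and 2. By direction alone, 36 of 46 members were higher on treated replicate 1 than 2, but 33 of 46 were lower on untreated replicate 1 than 2. Of all tested probe sets, 44.3% were higher on treated replicate 1 than 2 and 40.6% on untreated replicate 1 than 2. No label says that a number marks a shared culture or day, and with 2 pairs the numbers were not taken to pair the samples.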

Other observations

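Probe sets that list a ribosomal protein gene with other symbols were not members, and 105 of these 110 were bright enough to be tested. Their differences had a median of -0.016 log2, 37 above 0 and 68 below, and 0 passed by limma. The probe sets annotated to Rps6 and its pseudogene Rps6-ps4, singled out after their values were seen, held both bright and dim readings. The brightest read 21519 and 19311 with BMP-2 and 18701 and 20652 without, with overlap. A dim one read 2928 and 2039 against 1686 and 1535, which is 0.60 ± 0.15 log2 (unadjusted p = 0.0024, limma adjusted p = 1). Another read 2680 and 2351 against 2071 and 1682, which is 0.43 ± 0.12 log2 (unadjusted p = 0.0046, limma adjusted p = 1). Both were higher on both treated arrays, and the tested probe set that names Rps6 alone read 1166 and 1137 against 1247 and 942, with overlap.

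Rps3a1, which encodes a protein of the small subunit but is not reached by the symbol rule, read 24107 and 23538 with BMP-2 and 24059 and 24662 without, a difference of -0.03 ± 0.06 log2 with overlap. The pair annotated to Rpl5 and Rpl5-ps2 with the brightest signal read 21126 and 19680 against 19908 and 20753, a difference of 0.0046 log2.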
